A study of Bos taurus with 6 samples.

Results

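Genes that regulate the cell cycle, other than those that copy the DNA, were compared between bovine fetal fibroblasts (bEFs) with and without an exogenous fat-1 gene. The set was taken from the pathway annotations in the deposited expression table and holds every gene assigned to the KEGG map of the cell cycle and not to the KEGG map of DNA replication. Of 117 genes with the cell cycle annotation, 7 also carried the replication annotation (MCM2 to MCM7 and PCNA), and 4 were left out by name (CDKN1C and the TGFB genes). This left 106 of the 17663 genes in the table. Each was placed in a phase of the cycle and called an activator of progression, an inhibitor or a part of the machinery that degrades cell cycle proteins, from general knowledge of the gene. The phosphatases CDC14A and CDC14B, listed under mitotic exit, were counted with that machinery. Genes of sister chromatid cohesion formed a separate list.

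The study examined energy metabolism in bEFs, which are primary cultures of cells that make connective tissue matrix. FT cells came from 3 fat-1 transgenic cattle fetuses and WT cells from 3 wild-type Luxi cattle fetuses, all at 50 to 60 days of pregnancy. The fat-1 gene, from a nematode, encodes a desaturase that turns n-6 into n-3 polyunsaturated fatty acids. Poly(A) RNA was sequenced from 1 library per fetus, named FT_1 to FT_3 and WT_1 to WT_3. Each culture was started from fetal tissue that excluded bones, organs, limbs and head, with no sort for a cell type named in the methods. The breed of the FT fetuses, the promoter of the transgene, and the passage and density of the cultures at RNA extraction are not given in the sources used here. The transgene itself was not analysed here.

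The cell cycle is driven by cyclins, which bind and switch on cyclin-dependent kinases (CDKs). D-type cyclins with CDK4 and CDK6 act in G1 and phosphorylate the retinoblastoma family, which frees E2F factors to transcribe the genes of S phase; cyclin E with CDK2 then starts replication, and cyclins A and B with CDK1 bring the cell into mitosis. CDK inhibitors and checkpoints can halt the cycle at each step, and ubiquitin ligases (SCF, and the anaphase-promoting complex or APC) end each step by marking cyclins and other proteins for destruction. Cultured fibroblasts divide until they are crowded, starved of growth factors or senescent, and many regulators of S phase and mitosis are transcribed mainly while cells cycle.

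Total counts per library were 63366834, 48167642 and 54204446 for FT_1 to FT_3 and 69777641, 51310741 and 54271927 for WT_1 to WT_3. At this depth 104 of the 106 members had a mean count of at least 100, and the median member had a mean count of 1832. The members took 0.617%, 0.561% and 0.558% of the counts in FT_1, FT_2 and FT_3, and 0.819%, 0.853% and 0.783% in WT_1, WT_2 and WT_3, so every FT library lay below every WT library. Levels are given below as FPKM, fragment counts corrected for the length of the gene and the size of the library, which the authors deposited beside the counts. Differences are log2 fold changes of FT against WT from the quasi-likelihood test of edgeR on the counts. That test prints no standard error (SE). The SE given here is the absolute log2 fold change divided by the square root of the test's F statistic. A gene was called higher or lower at a Benjamini-Hochberg adjusted p under 0.05 over all genes tested. The p-values measure the spread between these 6 libraries, and exact permutation of 3 against 3 libraries allows no p below 0.10.

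FT_1 stood apart from the other FT libraries. The biological coefficient of variation, the spread of a gene's level between libraries beyond counting noise, was 56.2% between FT_1 and FT_2 and 56.8% between FT_1 and FT_3. It was 8.22% between FT_2 and FT_3 and 9.97% to 13.4% between WT libraries. Among the members, FT_1 was compared with the mean log2 level of FT_2 and FT_3. It was more than 2-fold above that mean for 8 genes and more than 2-fold below it for 6. These were 13.3% of the members tested, against 20.7% of all genes. Both values are therefore given for each member named here that was called in only 1 of the fits with and without FT_1.

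Some markers of other cell types moved with FT_1, and others, such as MSLN and DES, differed from WT in all FT libraries. The summed FPKM of 7 epithelial markers was 438, 12.8 and 11.9 in FT_1, FT_2 and FT_3, and 10.1, 7.83 and 13.9 in WT_1, WT_2 and WT_3. Keratin 5 (KRT5), the most abundant of them, was at 172, 2.57 and 1.63 FPKM in FT_1, FT_2 and FT_3, and KRT5, KRT8, KRT14 and KRT18 were listed at 0 in all WT libraries. Nearly all of the WT sums was CDH1, at 10.0, 7.83 and 13.9 FPKM in WT_1, WT_2 and WT_3. It was at 36.3, 7.11 and 8.41 FPKM in FT_1, FT_2 and FT_3. In edgeR's test 5 epithelial markers could be tested, with adjusted p between 0.0561 for KRT5 and 0.342 for CDH1, and without FT_1 4 of the 5 were called higher in FT.

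The summed FPKM of 10 fibroblast markers was 8551, 20028 and 19314 in FT_1, FT_2 and FT_3, and 21590, 21164 and 21395 in WT_1, WT_2 and WT_3. Vimentin (VIM) was the most abundant of them, and 1 of the 10 (PDGFRA) was called higher. Without FT_1, 5 were called higher and 2 lower, VIM among the lower (-0.79, adjusted p = 1.06e-05) and LUM (1.37), DCN (1.01) and PDGFRB (1.06) among the higher. The summed FPKM of 3 mesothelial markers was 200, 45 and 46.3 in FT_1, FT_2 and FT_3 and 2.32, 3.48 and 3.34 in WT libraries. Nearly all of it was MSLN, which was called higher in FT, and the mesothelial gene WT1 was under 0.1 FPKM throughout. Markers of other types were low. Summed FPKM did not pass 1.52 for endothelial genes (KDR and CLDN5 under 0.1 throughout, PECAM1 the most abundant), 7.93 for leukocyte genes (CD3E under 0.1, CD14 the most abundant) or 5.81 for muscle genes (ACTC1 under 0.1). PECAM1 was called lower only without FT_1 (-2.49, adjusted p = 0.000451). Of the leukocyte genes, CD68 was called lower in FT (-1.24, edgeR adjusted p = 0.0185). CD14 was called lower by edgeR only without FT_1 (-0.67, adjusted p = 0.0115), but by limma on FPKM with FT_1 included. Of 3 muscle genes tested, DES, the most abundant, was called higher in FT and MYH3 lower (-4.01, edgeR adjusted p = 0.0461). DES was at 5.74, 4.01 and 3.17 FPKM in FT_1, FT_2 and FT_3, and at 0.07, 0 and 0 in WT libraries. MYF5 was called lower by edgeR only without FT_1 (-1.09, adjusted p = 0.0129), but by limma on FPKM with FT_1 included. Summed neural markers were at 11.2 FPKM in FT_1 and 1.48 to 3.86 in the other libraries, with GFAP under 0.1. The excess in FT_1 was NCAM1, at 9.13 FPKM against 0.12 to 0.42 in the others, while TUBB3, the most abundant on average over the libraries, was called lower in FT (-0.85, edgeR adjusted p = 0.0384). The part of these cells in the results was not tested, apart from the fits without FT_1.

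**Figure D1:**
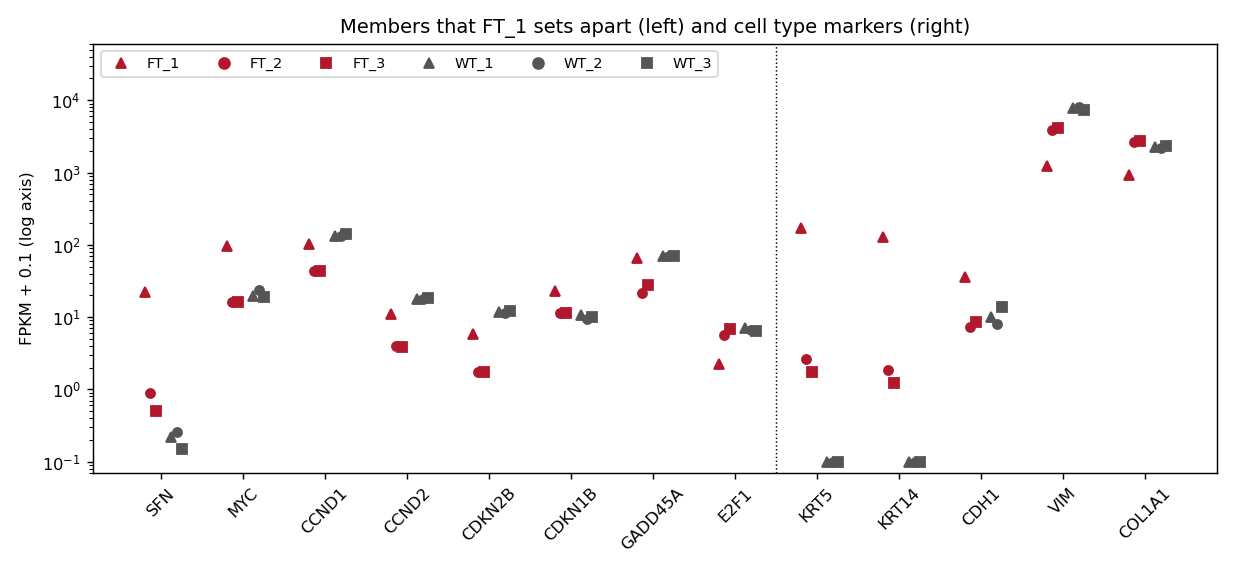
FPKM (with 0.1 added, log axis) of 8 members that FT_1 sets apart, left of the dotted line, and of 5 cell type markers, right of it, in each of the 6 libraries. FT_1 (red triangles) lies far from FT_2 and FT_3 for SFN, MYC and KRT5, while the WT libraries (grey) lie close together for most genes.

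A larger share of the members than of all genes was called lower in FT, and a smaller share was called higher. Of 105 members tested, 12 (11.4%) were higher in FT, against 20.1% of all 13482 genes tested, and 41 (39.0%) were lower, against 18.9%. The median log2 fold change was -0.28 over the members and 0.03 over all genes. By library, the median of the members against the WT mean was -0.28, -0.30 and -0.23 on the log2 scale in FT_1, FT_2 and FT_3. Every FT library lay below every WT library for 50 members, against 29.4% of all genes, and above for 18, against 28.3%, in counts scaled for library composition. With the threshold of the study's methods, an unadjusted p under 0.05 and a change of more than 2-fold, 22 members were lower, against 8.96% of all genes, and 2 were higher (SFN and EP300), against 10.2%. SMC1B could not be tested, with counts of 0 in all FT libraries and 0, 6 and 4 in WT libraries.

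Without FT_1, 57 members were lower, against 31.5% of 13765 genes, and 19 were higher, against 30.6%, and all 53 calls made with FT_1 were made again. With each of the 6 libraries left out in turn, 33 of the 53 calls (28 lower and 5 higher) held throughout and 20 failed in at least 1 fit. The scaling mattered for small differences. With library totals alone in place of composition factors, the median of all genes moved from 0.03 to -0.12, with 2049 genes higher and 3394 lower, against 2714 and 2547 before. The members were then 7 higher and 48 lower. The rises of RB1, SMAD4, CDK6 and CDC14A were among the calls lost on that scale, and no called member changed sign under any scaling. With limma on FPKM these 4 rises and those of CCND3 and SFN were lost. Of the members that edgeR did not call, DESeq2 called CCND1, YWHAB and BUB3 lower and CDKN1B and GADD45B higher, and limma called CCND1, CDK7, YWHAB, CCNE2, ORC4, ORC5, ANAPC5, RAD21 and BUB3 lower. In bulk RNA, fewer cycling cells and less of these RNAs in each cell cannot be told apart.

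**Figure D2:**
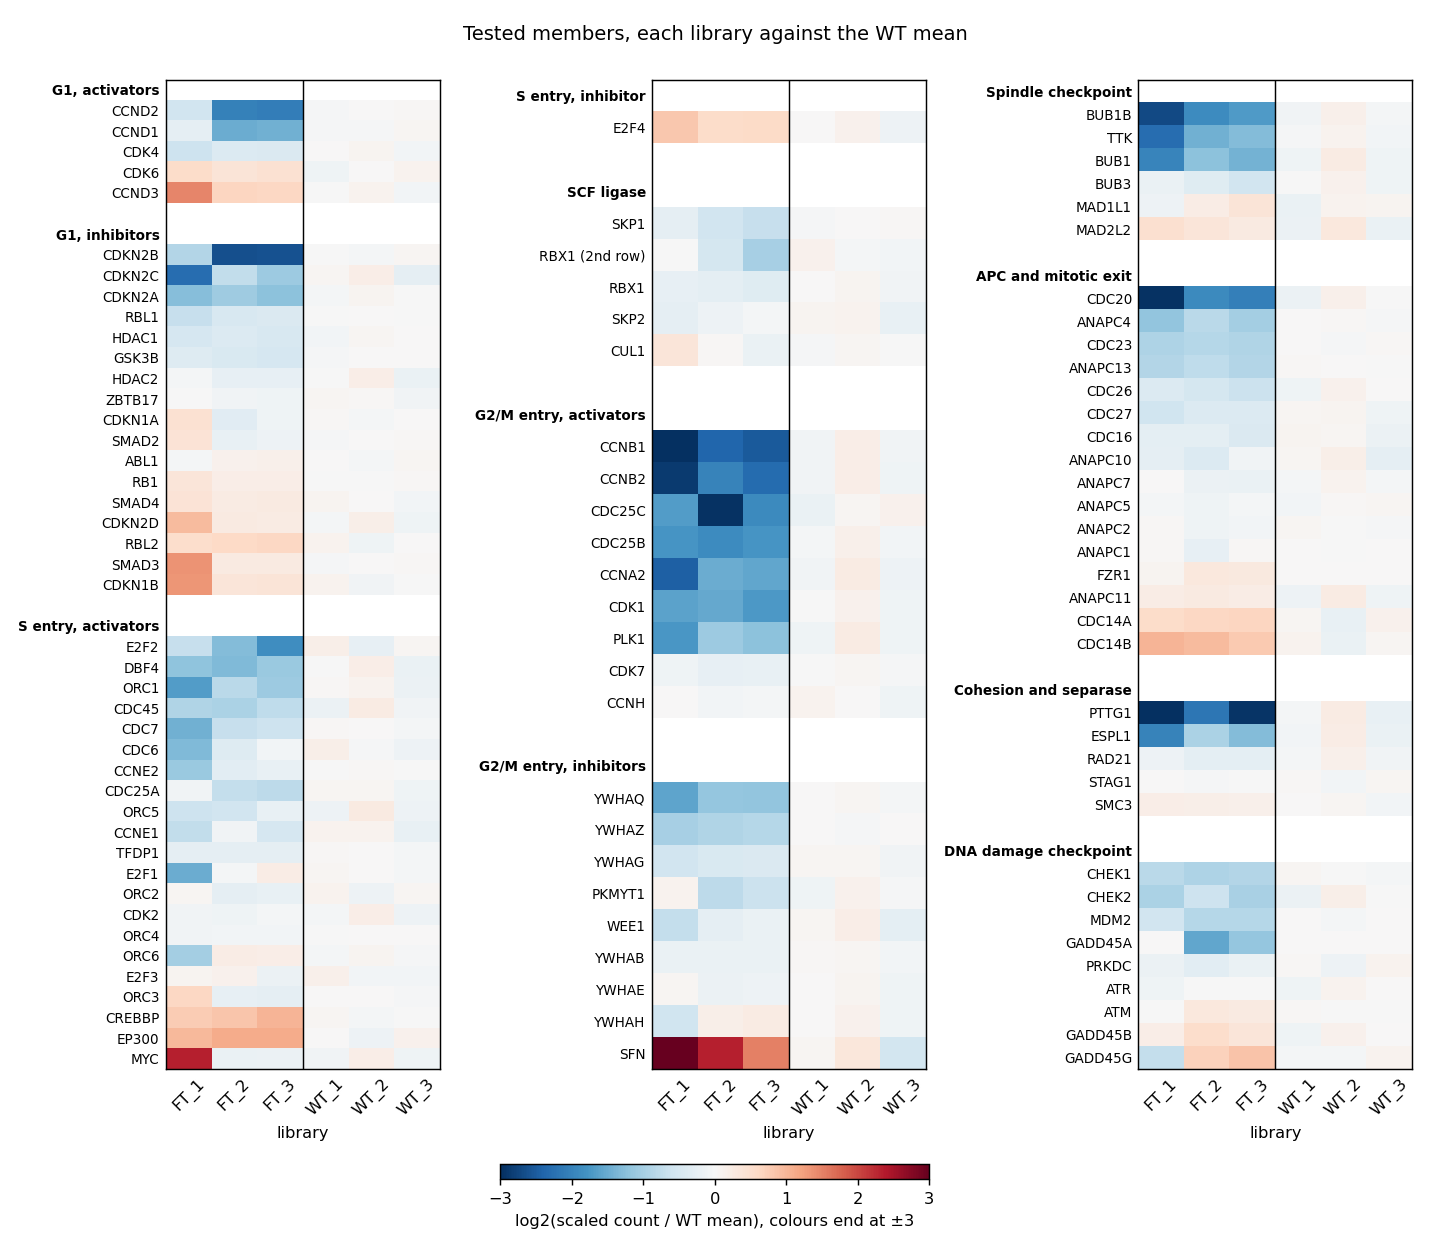
Count of 103 of the 105 tested members in each library relative to the WT mean, as log2 of counts scaled for library size and composition with 0.1 added, by phase and role (rows) and library (columns). Blue is below and red above the WT mean; most activators of mitotic entry and BUB1, BUB1B and TTK are deep blue in all 3 FT libraries, and CCNA1, with counts of 0 in FT_2 and FT_3, is not drawn.

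In G1, cyclin D1 (CCND1) and cyclin D2 (CCND2) were low in FT while cyclin D3 (CCND3) was high. CCND1, the most abundant D-type cyclin, was at 101, 42.7 and 43.8 FPKM in FT_1, FT_2 and FT_3, and at 133, 131 and 141 in WT_1, WT_2 and WT_3. The groups did not overlap, but FT_1 lay closer to WT than to the other FT libraries. Its log2 fold change was -0.96 (SE 0.34, edgeR adjusted p = 0.0708), not called by edgeR but called lower by DESeq2 (adjusted p = 0.0133) and by limma (adjusted p = 0.0287), and without FT_1 it was -1.47 (SE 0.07, adjusted p = 1.87e-07). CCND2 was at 10.9, 3.89 and 3.72 FPKM in FT libraries and at 17.7, 17.9 and 18.3 in WT libraries. It fell by 1.39 on the log2 scale (SE 0.43, edgeR adjusted p = 0.0468), and without FT_1 by 2.07. This call failed when any library other than FT_1 was left out, with an adjusted p of up to 0.122. CCND3 was at 28.9, 16.1 and 15.6 FPKM in FT libraries and at 11.4, 12.3 and 10.8 in WT libraries. All FT libraries were above WT, FT_1 most. CCND3 rose by 0.97 (SE 0.25, edgeR adjusted p = 0.0256), by 0.63 without FT_1, and the call failed without any WT library (adjusted p up to 0.0919), with limma on FPKM (adjusted p = 0.0539) and with replicate number as a block.

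The kinase partners of the D cyclins moved in opposite directions. CDK4 was at 44.2, 49.9 and 48.8 FPKM in FT libraries and at 75.0, 79.0 and 69.8 in WT libraries, and fell by 0.49 (SE 0.09, edgeR adjusted p = 0.00947). CDK6, far less abundant, was at 5.75, 4.97 and 5.13 FPKM in FT libraries and at 3.93, 4.27 and 4.54 in WT libraries. Its rise of 0.47 (SE 0.13, edgeR adjusted p = 0.0334) was not called without any library other than FT_1, with an adjusted p of up to 0.129. Of the 5 activators of G1, 2 (40.0%) were thus lower, against 18.9% of all genes, 2 (40.0%) higher, against 20.1%, and 1 not called, with a median of -0.49. Without FT_1, 3 were lower and 2 higher, when all genes were at 31.5% lower and 30.6% higher.

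Inhibitors of G1 moved in both directions. Of 17 tested, 6 (35.3%) were lower, against 18.9% of all genes, and 3 (17.6%) higher, against 20.1%. Without FT_1, 8 were lower and 5 higher, when all genes were at 31.5% lower and 30.6% higher. The median was 0.03, or -0.18 without FT_1, so it had no fixed sign. The INK4 inhibitors, which bind CDK4 and CDK6 and keep D cyclins off them, held the largest falls. CDKN2A, which also encodes the ARF protein from another reading frame, was at 9.5, 10.8 and 9.52 FPKM in FT libraries and at 24.3, 27.0 and 25.0 in WT libraries. It fell by 1.20 (SE 0.11, edgeR adjusted p = 0.00106), nearly evenly in the FT libraries, and gene counts do not separate its transcripts. The row has no symbol in the table and was named from its description. CDKN2B, its neighbour in the INK4 family, was at 5.79, 1.64 and 1.62 FPKM in FT libraries and at 11.8, 11.4 and 12.2 in WT libraries. It fell by 1.81 (SE 0.53, edgeR adjusted p = 0.0383), and by 2.68 without FT_1, the library closest to WT. CDKN2C was at 4.13, 11.9 and 9.17 FPKM in FT libraries and at 23.1, 25.5 and 18.4 in WT libraries, with FT_1 lowest. It fell by 1.25 (SE 0.39, edgeR adjusted p = 0.0473), and by 0.92 without FT_1. The CDKN2B call failed without any library other than FT_1 (adjusted p up to 0.103), and the CDKN2C call without FT_3 or any WT library (up to 0.142). CDKN2D was at 4.50, 2.68 and 2.63 FPKM in FT libraries and at 2.38, 2.85 and 2.27 in WT libraries, overlapping in FPKM though not in scaled counts, and was not called.

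The CIP/KIP inhibitors, which act on cyclin E and cyclin A complexes, were not called by edgeR with FT_1 included. CDKN1A (p21), the most abundant G1 inhibitor, was at 118, 66.8 and 75.7 FPKM in FT_1, FT_2 and FT_3, and at 97.1, 91.4 and 94.9 in WT libraries. FT_1 lay above all WT libraries and the other FT libraries below them. The log2 fold change was 0.03 (SE 0.21, edgeR adjusted p = 0.909) with FT_1 and -0.24 (SE 0.07, adjusted p = 0.0197) without it. CDKN1B (p27), an inhibitor that accumulates in resting cells, was at 22.6, 11.4 and 11.4 FPKM in FT libraries and at 10.7, 9.17 and 9.84 in WT libraries. All FT libraries were above WT, FT_1 by far. Its log2 fold change of 0.76 (SE 0.28) did not pass in edgeR (adjusted p = 0.0767) but did in DESeq2 (adjusted p = 0.0273), and without FT_1 it was 0.37 (SE 0.09, adjusted p = 0.00687).

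**Figure D3:**
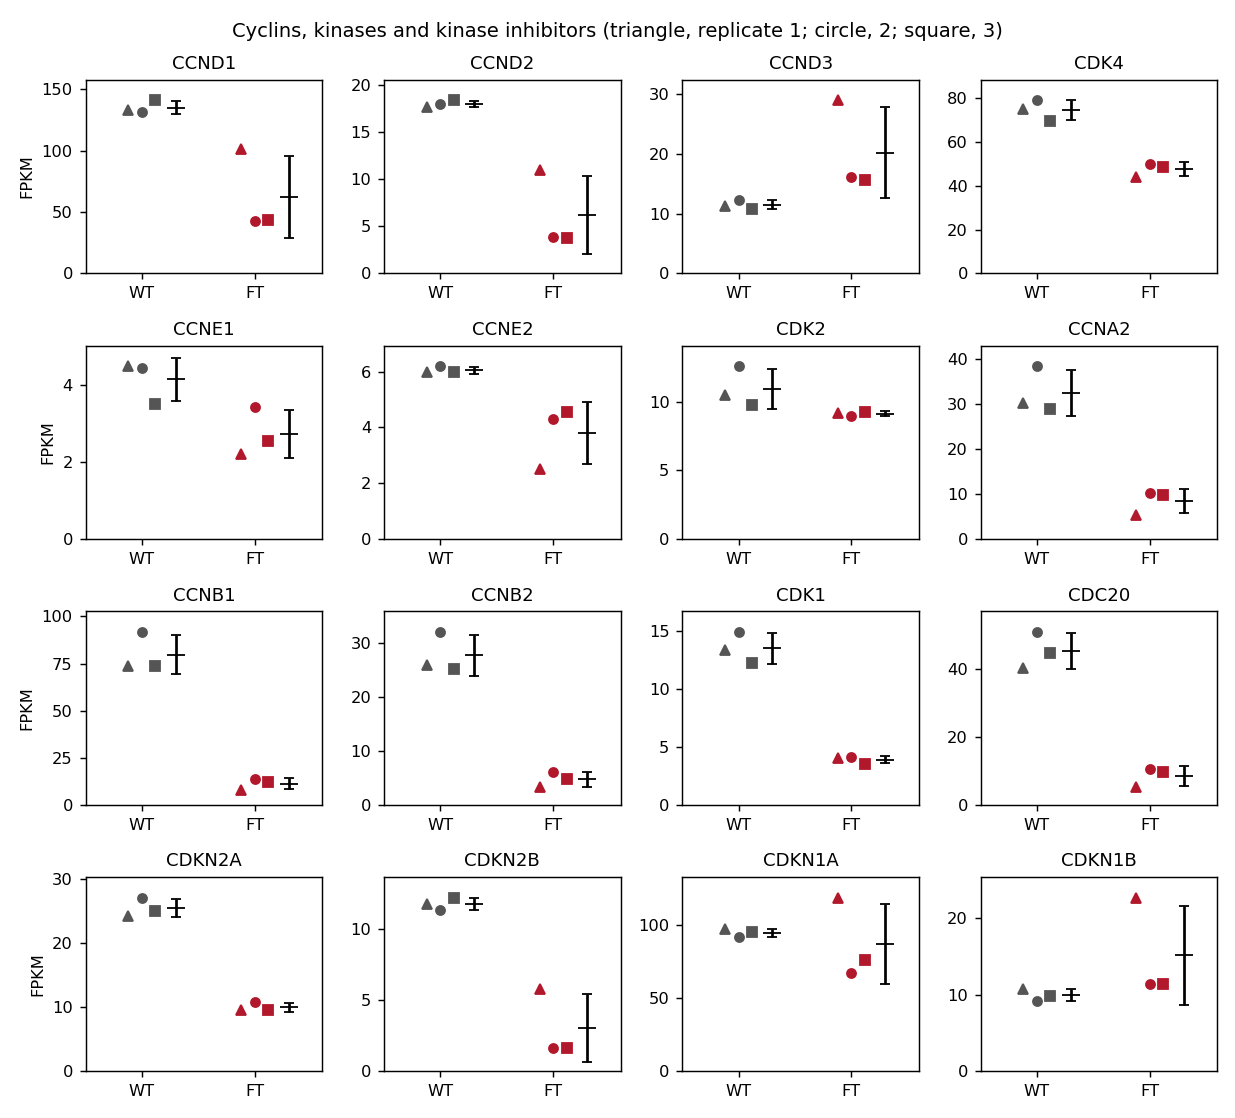
FPKM of 16 cyclins, kinases, their inhibitors and CDC20 in each library (triangle, replicate 1; circle, 2; square, 3), with the mean and SD of 3 libraries beside the points; each axis starts at 0. CCNA2, CCNB1, CCNB2, CDK1 and CDC20 show a wide gap between FT (red) and WT (grey), while FT_1 lies apart for CCND1, CCND2, CCND3, CDKN1A, CDKN1B and CDKN2B.

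In the retinoblastoma family, which holds E2F factors in check, RBL2 was higher and RBL1 lower. RBL2 (p130), the member that prevails in resting cells, was at 15.9, 16.5 and 16.5 FPKM in FT libraries and at 13.0, 11.2 and 12.3 in WT libraries, and rose by 0.58 (SE 0.08, edgeR adjusted p = 0.00382). RBL1 (p107), itself an E2F target, was at 3.89, 4.43 and 4.51 FPKM in FT libraries and at 6.84, 6.99 and 6.77 in WT libraries, a log2 fold change of -0.52 (SE 0.10, edgeR adjusted p = 0.00936). RB1 was at 9.10, 7.92 and 7.85 FPKM in FT libraries and at 7.69, 7.62 and 7.87 in WT libraries. Its groups overlapped in FPKM though not in scaled counts, and it rose by 0.26 (SE 0.08, edgeR adjusted p = 0.0445), a call lost with library totals and without any library other than FT_1 (adjusted p up to 0.147). The histone deacetylase HDAC1, a corepressor of these proteins, fell by 0.46 (SE 0.08, edgeR adjusted p = 0.00547), and the kinase GSK3B, which marks cyclin D1 for export and destruction, by 0.44 (SE 0.07, edgeR adjusted p = 0.00562). SMAD4, the shared mediator of TGF-beta signals, rose by 0.31, a call lost with library totals and without any library other than FT_1 (adjusted p up to 0.111). SMAD3 was at 24.1 FPKM in FT_1 but at 11.02 and 11.03 in FT_2 and FT_3 and at 10.0 to 10.5 in WT libraries. Its log2 fold change was 0.73 (edgeR adjusted p = 0.116), not called, and without FT_1 it was 0.26 (adjusted p = 0.0217), called higher. SMAD2 was called only without FT_1, with log2 fold changes of 0.05 (edgeR adjusted p = 0.859) and -0.18 (adjusted p = 0.0322).

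At the entry to S phase, 1 of the 3 activating E2F factors and part of the machinery that fires origins were called lower. Of 21 activators, 6 (28.6%) were lower, against 18.9% of all genes, 2 (9.52%) higher, against 20.1%, and 13 not called, with a median of -0.28. Without FT_1, 10 were lower and 2 higher, when all genes were at 31.5% lower and 30.6% higher. E2F1 was at 2.11, 5.62 and 6.81 FPKM in FT_1, FT_2 and FT_3, and at 6.86, 6.54 and 6.27 in WT libraries. FT_1 was far below the other libraries, and the groups overlapped. Its log2 fold change was -0.27 (SE 0.42, edgeR adjusted p = 0.638), and 0.09 (SE 0.12, adjusted p = 0.509) without FT_1. E2F2 was scarce, at 0.51, 0.31 and 0.20 FPKM in FT libraries and at 1.03, 0.76 and 0.95 in WT libraries. It fell by 1.26 (SE 0.38, edgeR adjusted p = 0.0426), a call that failed when any library other than FT_1 was left out (adjusted p up to 0.136). E2F3 was at 4.50, 4.55 and 3.61 FPKM in FT libraries and at 5.19, 4.36 and 4.37 in WT libraries, and the groups overlapped. E2F4, a repressor in resting cells and the only S phase inhibitor among the members, was at 26.1, 21.4 and 21.5 FPKM in FT libraries and at 16.5, 17.8 and 14.7 in WT libraries. All FT libraries were above WT, and E2F4 rose by 0.65 (SE 0.11, edgeR adjusted p = 0.00731). TFDP1, the partner through which E2Fs bind DNA, fell by 0.28, a call lost in 4 of the 6 fits with a library left out (adjusted p up to 0.0913).

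Cyclin E and CDK2, which start replication, were not called by edgeR with FT_1 included. CCNE1 was at 2.22, 3.42 and 2.54 FPKM in FT libraries and at 4.48, 4.43 and 3.51 in WT libraries, with a log2 fold change of -0.44 (SE 0.22, edgeR adjusted p = 0.167). CCNE2 was at 2.53, 4.32 and 4.55 FPKM in FT libraries and at 5.97, 6.19 and 5.98 in WT libraries, -0.51 (SE 0.24, edgeR adjusted p = 0.146), and -0.28 (adjusted p = 0.0356) without FT_1. Limma on FPKM called CCNE2 lower with FT_1 included (adjusted p = 0.0464). CDK2 was at 9.19, 8.95 and 9.24 FPKM in FT libraries and at 10.5, 12.6 and 9.72 in WT libraries, -0.10 (SE 0.12, edgeR adjusted p = 0.538). In FPKM each of these genes lay lower in all FT libraries than in any WT library, but once counts were scaled for library composition CCNE1 and CDK2 overlapped. CDC25A, the phosphatase that activates CDK2, was at 2.81, 1.78 and 1.69 FPKM in FT libraries and at 3.44, 3.47 and 2.99 in WT libraries. It was called only without FT_1, with log2 fold changes of -0.50 (edgeR adjusted p = 0.113) and -0.76 (adjusted p = 0.000387). MYC, a growth factor-induced transcription factor, was at 95.5, 16.1 and 16.3 FPKM in FT_1, FT_2 and FT_3, and at 19.5, 23.9 and 18.9 in WT libraries. FT_1 was far above WT and the other FT libraries were below it. The log2 fold change was 1.18 (SE 0.73, edgeR adjusted p = 0.243) with FT_1 and -0.19 (SE 0.10, adjusted p = 0.143) without.

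DBF4 and CDC7, the subunits of the kinase that fires replication origins, were both lower. DBF4 was at 4.50, 4.08 and 4.63 FPKM in FT libraries and at 11.4, 13.1 and 9.87 in WT libraries, a wide gap, and fell by 1.22 (SE 0.13, edgeR adjusted p = 0.00168). CDC7 was at 8.34, 13.6 and 14.1 FPKM in FT libraries and at 25.4, 24.7 and 23.8 in WT libraries. It fell by 0.87 (SE 0.21, edgeR adjusted p = 0.0226), a call lost without any WT library (adjusted p up to 0.0782). CDC45, a part of the replicative helicase, fell by 0.88 (SE 0.14, edgeR adjusted p = 0.00563). CDC6, which loads that helicase, was at 0.85, 1.63 and 1.98 FPKM in FT libraries and at 2.70, 2.34 and 2.14 in WT libraries, not called (edgeR adjusted p = 0.262). Of the 6 subunits of the origin recognition complex, 1 (16.7%) was called lower by edgeR, against 18.9% of all genes. This was ORC1, whose level follows the cycle, which fell by 1.16 (SE 0.27, edgeR adjusted p = 0.0186, up to 0.0722 with a library left out). The other 5 were not called by edgeR, but limma on FPKM called ORC4 (adjusted p = 0.0233) and ORC5 (adjusted p = 0.0298) lower. Without FT_1, ORC2 (-0.26, adjusted p = 0.0465, against -0.15 and 0.386 with it) and ORC3 (-0.27, adjusted p = 0.0327, against 0.10 and 0.792) were called lower as well. ORC6 was at 9.58 FPKM in FT_1 and at 21.6 and 22.3 in FT_3 and FT_2, against 20.6 to 22.4 in WT libraries.

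The 2 rises among S phase activators belonged to a pair of related histone acetyltransferases that act as coactivators for E2F and many other factors. EP300 was at 14.8, 16.1 and 15.9 FPKM in FT libraries and at 8.34, 7.46 and 9.05 in WT libraries, and rose by 1.07 (SE 0.10, edgeR adjusted p = 0.00122). CREBBP was at 10.4, 10.7 and 12.0 FPKM in FT libraries and at 6.97, 6.46 and 6.60 in WT libraries, and rose by 0.88 (SE 0.09, edgeR adjusted p = 0.00157). The FT libraries agreed within a narrow range for both genes and all lay above WT.

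Of 5 genes of the SCF ligase, which degrades cyclin E and CDK inhibitors among others, 2 (40.0%) were lower, against 18.9% of all genes, and 3 not called, with a median of -0.31, and without FT_1 3 were lower, when 31.5% of all genes were. SKP1, its adaptor, was at 125, 99.6 and 92.0 FPKM in FT libraries and at 163, 167 and 171 in WT libraries. It fell by 0.50 (SE 0.12, edgeR adjusted p = 0.0191), with an adjusted p of up to 0.0677 when a library other than FT_1 was left out. RBX1, the RING subunit, was at 14.9, 13.99 and 13.2 FPKM in FT libraries and at 19.6, 20.5 and 18.0 in WT libraries, -0.31 (SE 0.08, edgeR adjusted p = 0.0277; up to 0.10 with a library left out). A second gene described as RBX1, without a symbol, had a log2 fold change of -0.46 (edgeR adjusted p = 0.221), not called, and of -0.76 (adjusted p = 0.00322) without FT_1, called lower. Reads shared by these copies may have been split between them. SKP2, the subunit that recognises p27, was at 2.76, 2.99 and 3.11 FPKM in FT libraries and at 3.95, 4.0 and 3.16 in WT libraries, not called (edgeR adjusted p = 0.442), and the scaffold CUL1 was not called either.

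The activators of G2 and mitotic entry held the largest difference among the lists by phase and role, by the median. Of 10, 7 (70%) fell, against 18.9% of all genes, and 3 were not called by edgeR, with a median of -1.80. Without FT_1, 9 of the 10 were lower, among them CCNA1, whose call rests on counts of 0, when 31.5% of all genes were, with a median of -1.74. The summed scaled count of the list was 29.1%, 34.9% and 33.6% of the WT mean in FT_1, FT_2 and FT_3, and 94.5%, 113% and 92.4% in WT_1, WT_2 and WT_3. Cyclin B1 (CCNB1, ENSBTAG00000014239, on chromosome 20), which with CDK1 forms the kinase that drives mitosis, was at 8.20, 13.8 and 12.1 FPKM in FT_1, FT_2 and FT_3, and at 74.0, 91.7 and 73.7 in WT_1, WT_2 and WT_3. Every FT library was far below every WT library and FT_1 was the lowest. CCNB1 fell by 2.65 (SE 0.23, edgeR adjusted p = 0.00102). Cyclin B2 (CCNB2) was at 3.37, 6.13 and 4.87 FPKM in FT libraries and at 26.0, 32.1 and 25.2 in WT libraries, and fell by 2.37 (SE 0.25, edgeR adjusted p = 0.00157). Cyclin A2 (CCNA2), which acts in S phase and G2, was at 5.32, 10.3 and 9.71 FPKM in FT libraries and at 30.1, 38.3 and 28.9 in WT libraries, and fell by 1.78 (SE 0.28, edgeR adjusted p = 0.00517). CDK1 itself was at 4.02, 4.14 and 3.57 FPKM in FT libraries and at 13.4, 14.9 and 12.2 in WT libraries. Its FT libraries were nearly equal, FT_1 included, and CDK1 fell by 1.63 (SE 0.11, edgeR adjusted p = 0.000688).

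The phosphatases that remove the inhibitory phosphates from CDK1 followed. CDC25B was at 7.21, 6.51 and 6.94 FPKM in FT libraries and at 25.8, 29.98 and 25.3 in WT libraries, and fell by 1.81 (SE 0.10, edgeR adjusted p = 0.000523). CDC25C, much scarcer, was at 0.98, 0.37 and 0.81 FPKM in FT libraries and at 3.09, 3.74 and 3.87 in WT libraries, with a log2 fold change of -2.14 (SE 0.38, edgeR adjusted p = 0.00731). PLK1, the kinase that promotes mitotic entry and spindle assembly, was at 5.06, 7.81 and 6.93 FPKM in FT libraries and at 17.1, 22.0 and 17.0 in WT libraries, and fell by 1.34 (SE 0.20, edgeR adjusted p = 0.00444). These 3 genes had no overlap between groups. CDK7 and cyclin H (CCNH), which activate CDKs and also serve general transcription, were at 13.6 to 15.2 and 10.6 to 11.7 FPKM in FT libraries and at 17.7 to 18.8 and 11.6 to 13.6 in WT libraries. Neither was called by edgeR with FT_1 included (adjusted p = 0.104 and 0.733), but limma on FPKM called CDK7 lower (adjusted p = 0.0143). In edgeR the log2 fold change of CDK7 was -0.20, and without FT_1 -0.24 (adjusted p = 0.0382), called lower. Cyclin A1 (CCNA1), a germ line cyclin, was close to absent, with counts of 12, 0 and 0 in FT libraries and 38, 63 and 4 in WT libraries. Its log2 fold change was -3.03 (SE 1.56, edgeR adjusted p = 0.173), not called. Without FT_1 it was called lower (adjusted p = 0.00939), but with both FT libraries at 0 the size of the fall is not defined.

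Of 9 inhibitors of mitotic entry, 3 (33.3%) were lower, against 18.9% of all genes, 1 (11.1%) higher, against 20.1%, and 5 not called, with a median of -0.37. Without FT_1, 5 were lower and 2 higher, when all genes were at 31.5% lower and 30.6% higher. The kinases that hold back CDK1 were not called with FT_1 included. WEE1, which phosphorylates it in the nucleus, was at 6.81, 9.13 and 9.52 FPKM in FT libraries and at 12.95, 14 and 9.97 in WT libraries, with a log2 fold change of -0.37 (SE 0.19, edgeR adjusted p = 0.166). PKMYT1, which does the same at membranes, was at 2.89, 1.51 and 1.65 FPKM in FT libraries and at 2.72, 3.27 and 2.88 in WT libraries, -0.40 (SE 0.27, edgeR adjusted p = 0.282), and -0.73 (adjusted p = 0.00122) without FT_1, the library that overlapped WT.

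The 14-3-3 proteins, which hold CDC25 phosphatases in the cytoplasm among many other bindings, included the 4 most abundant members (YWHAE, YWHAB, YWHAQ and YWHAZ), with YWHAE at a mean of 315 FPKM over the 6 libraries. Of 7, 3 (42.9%) fell, against 18.9% of all genes, 1 (14.3%) rose, against 20.1%, and 3 were not called. Without FT_1, 4 were lower and 2 higher, when all genes were at 31.5% lower and 30.6% higher. Of the 3 not called by edgeR, YWHAB (-0.19, adjusted p = 0.0248, against -0.20 and 0.101 with FT_1) and YWHAH (0.21, adjusted p = 0.0439, against -0.01 and 0.975) were called lower and higher without FT_1. With FT_1 included, DESeq2 (adjusted p = 0.0376) and limma (adjusted p = 0.0124) called YWHAB lower. YWHAQ was at 66.5, 87.6 and 84.9 FPKM in FT libraries and at 222, 228 and 209 in WT libraries, and fell by 1.3 (SE 0.14, edgeR adjusted p = 0.00162). YWHAZ was at 88.4, 92.9 and 94.1 FPKM in FT libraries and at 197, 190 and 194 in WT libraries, and fell by 0.92 (SE 0.08, edgeR adjusted p = 0.000954), while YWHAG fell by 0.49 (SE 0.09, edgeR adjusted p = 0.00909). The exception was SFN (14-3-3 sigma), a gene typical of epithelial cells. Its count was 1946, 53 and 31 in FT_1, FT_2 and FT_3, and 12, 12 and 4 in WT libraries. Nearly all of its signal lay in FT_1, the library with the keratins, although FT_2 and FT_3 were also above WT. SFN was called higher with a log2 fold change of 6.19 (SE 1.82, edgeR adjusted p = 0.0395), and of 2.53 (SE 0.65, adjusted p = 0.00693) without FT_1; the call failed without any WT library (adjusted p up to 0.133) and with limma (adjusted p = 0.214), and DESeq2, with a log2 fold change of 6.21 (SE 1.55), gave no p for it.

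In the spindle checkpoint, which delays anaphase until chromosomes are attached, 3 of 6 genes (50%) fell, against 18.9% of all genes. The other 3 were not called by edgeR, and the median was -0.94. Without FT_1, 4 were lower, when 31.5% of all genes were. Summed scaled counts were 40.9%, 49.7% and 48.3% of the WT mean in FT_1, FT_2 and FT_3. BUB1B (BubR1), a part of the complex that blocks the APC, was at 4.16, 7.29 and 8.12 FPKM in FT libraries and at 28.0, 33.7 and 28.5 in WT libraries, and fell by 2.04 (SE 0.27, edgeR adjusted p = 0.00296). TTK (MPS1), the kinase at the head of the pathway, was at 1.42, 2.54 and 2.75 FPKM in FT libraries and at 7.63, 8.35 and 7.27 in WT libraries, and fell by 1.63 (SE 0.27, edgeR adjusted p = 0.00572). The kinase BUB1 was at 4.43, 7.29 and 6.41 FPKM in FT libraries and at 17.5, 22.9 and 17.5 in WT libraries, and fell by 1.51 (SE 0.22, edgeR adjusted p = 0.00408). FT_1 was the lowest library for all 3 genes and the groups lay well apart. BUB3, which also has roles outside mitosis, was at 23.9, 20.9 and 18.0 FPKM in FT libraries and at 29.99, 33.4 and 27.4 in WT libraries, -0.38 (edgeR adjusted p = 0.0564), and -0.47 (adjusted p = 0.00232) without FT_1, called lower. MAD1L1 and MAD2L2 were not called.

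Among genes of the APC and mitotic exit, 7 of 16 (43.8%) fell, against 18.9% of all genes, 2 (12.5%) rose, against 20.1%, and 7 were not called, with a median of -0.19. Without FT_1, 7 were lower and 3 higher, when all genes were at 31.5% lower and 30.6% higher. CDC20, the activator that turns the APC on at anaphase, was at 5.26, 10.7 and 9.59 FPKM in FT libraries and at 40.3, 50.8 and 44.6 in WT libraries. It fell by 2.25 (SE 0.29, edgeR adjusted p = 0.00266), with all FT libraries far below WT. FZR1 (CDH1 of the APC), the activator that keeps the APC on in G1, was at 13.95, 16.1 and 15.6 FPKM in FT libraries and at 14.5, 14.4 and 14.5 in WT libraries, with a log2 fold change of 0.23 (SE 0.09, edgeR adjusted p = 0.0822), and of 0.30 (adjusted p = 0.00422) without FT_1. Of 12 core subunits of the APC, 6 (50.0%) were lower, against 18.9% of all genes, and 6 not called by edgeR. ANAPC4, a scaffold subunit, was at 8.59, 10.8 and 9.30 FPKM in FT libraries and at 21.4, 22.0 and 20.8 in WT libraries, and fell by 1.0 (SE 0.11, edgeR adjusted p = 0.00168). CDC23 fell by 0.90 and ANAPC13 by 0.85, with edgeR adjusted p of 0.000974 and 0.00119, and the log2 fold changes of CDC26, CDC27 and CDC16, also lower, lay between -0.53 and -0.34. These last 3 calls failed in 2 to 4 of the fits with a library left out. The phosphatase CDC14B was at 5.30, 4.94 and 4.33 FPKM in FT libraries and at 3.06, 2.47 and 2.98 in WT libraries, and rose by 0.93 (SE 0.12, edgeR adjusted p = 0.00302). Its relative CDC14A, at 1.01, 1.04 and 1.04 FPKM in FT libraries and at 0.78, 0.64 and 0.83 in WT libraries, rose by 0.63 (edgeR adjusted p = 0.0420), a call that held in 1 of the 6 fits with a library left out.

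Of the cohesion genes, the protease and its inhibitor fell while the ring itself was not called by edgeR with FT_1 included. PTTG1 (securin), which binds and restrains separase until anaphase, was at 2.92, 9.32 and 5.35 FPKM in FT libraries and at 45.2, 56.1 and 39.9 in WT libraries. The FT libraries differed among themselves but all lay far below WT, and PTTG1 fell by 2.84 (SE 0.44, edgeR adjusted p = 0.00463), the largest fall among the called members. ESPL1 (separase), which cuts cohesin, was at 1.6, 3.29 and 2.5 FPKM in FT libraries and at 6.70, 8.35 and 6.21 in WT libraries, and fell by 1.36 (SE 0.28, edgeR adjusted p = 0.0128; 0.0535 without WT_2). The cohesin subunit RAD21 was at 52.0, 45.9 and 45.3 FPKM in FT libraries and at 61.2, 69.9 and 58.5 in WT libraries, -0.25 (SE 0.10, edgeR adjusted p = 0.0971), called lower with library totals (adjusted p = 0.0287) and by limma on FPKM (adjusted p = 0.0210), and -0.30 (adjusted p = 0.00901) without FT_1. SMC3 and STAG1, the other ring genes tested, had log2 fold changes of 0.17 and -0.02 and were not called.

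**Figure D4:**
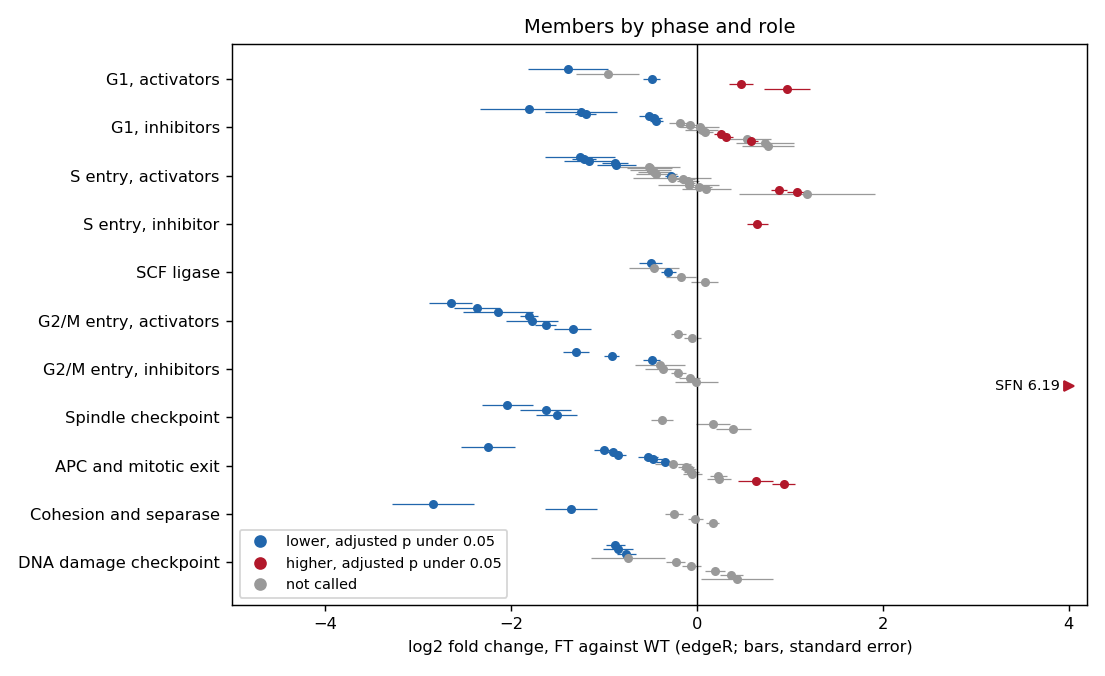
Log2 fold change of FT against WT from edgeR (points, with SE bars) for 103 of the 105 tested members by phase and role, blue where called lower, red where called higher and grey where not called. The largest falls lie among activators of mitotic entry, spindle checkpoint genes, CDC20 and PTTG1; SFN, at 6.19, is drawn at the edge of the axis and CCNA1 is left out.

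In the DNA damage checkpoint, 3 of 10 genes (30%) were lower, against 18.9% of all genes, and 1 (10%) higher, against 20.1%, with a median of -0.14. Without FT_1, 5 were lower and 4 higher, when all genes were at 31.5% lower and 30.6% higher. The kinases at the head of the pathway were not called with FT_1 included. ATM, which senses double-strand breaks, was at 3.66, 4.50 and 4.34 FPKM in FT libraries and at 4.15, 4.05 and 4.0 in WT libraries, with a log2 fold change of 0.19 (SE 0.11, edgeR adjusted p = 0.195), and of 0.29 (adjusted p = 0.00692) without FT_1, called higher. ATR, which senses stalled forks, was at 2.05, 2.19 and 2.15 FPKM in FT libraries and at 2.26, 2.67 and 2.49 in WT libraries, -0.06 (SE 0.10, edgeR adjusted p = 0.687). PRKDC, which acts at double-strand breaks, had log2 fold changes of -0.23 (edgeR adjusted p = 0.103) and, without FT_1, -0.26 (adjusted p = 0.0388), called lower. The kinases they activate were lower. CHEK1 was at 3.57, 3.26 and 3.32 FPKM in FT libraries and at 7.29, 6.92 and 6.70 in WT libraries, and fell by 0.88 (SE 0.10, edgeR adjusted p = 0.00166). CHEK2 was at 1.68, 2.05 and 1.61 FPKM in FT libraries and at 3.16, 4.04 and 3.55 in WT libraries, and fell by 0.85 (SE 0.16, edgeR adjusted p = 0.00850). Neither gene had any overlap between groups.

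MDM2, a ubiquitin ligase, was at 23.3, 18.7 and 18.3 FPKM in FT libraries and at 38.6, 36.6 and 38.4 in WT libraries, and fell by 0.76 (SE 0.10, edgeR adjusted p = 0.00336). It was counted as an inhibitor with the rest of its list, although it acts against the DNA damage checkpoint. GADD45A, a stress-induced gene that disrupts the CDK1 complex, was at 65.1, 21.3 and 27.7 FPKM in FT_1, FT_2 and FT_3, and at 71.0, 70.5 and 70.6 in WT libraries. FT_1 lay near WT and the other FT libraries far below, so its log2 fold change was -0.74 (SE 0.40, edgeR adjusted p = 0.190) with FT_1 and -1.36 (SE 0.11, adjusted p = 4e-06) without. GADD45G went the other way, at 6.34, 16.6 and 18.2 FPKM in FT_1, FT_2 and FT_3, against 10.96 to 12.2 in WT libraries. It was called only without FT_1, with log2 fold changes of 0.43 (edgeR adjusted p = 0.416) and 0.78 (adjusted p = 0.000102). GADD45B had log2 fold changes of 0.37 (edgeR adjusted p = 0.0508) and, without FT_1, 0.45 (adjusted p = 0.00277). It was called higher by edgeR only without FT_1, but by DESeq2 with it (adjusted p = 0.0324).

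By role, of 36 activators, 15 (41.7%) were lower, against 18.9% of all genes, and 4 (11.1%) higher, against 20.1%, with a median of -0.49. Of 43 inhibitors, 15 (34.9%) were lower and 6 higher, with a median of -0.18, and of 21 genes listed under degradation, 9 (42.9%) were lower and 2 (9.52%) higher, with a median of -0.26. The 2 higher were the phosphatases CDC14A and CDC14B, which were counted in this list. MDM2, which acts against the DNA damage checkpoint, was counted among the inhibitors called lower. Without FT_1 the lower and higher calls were 22 and 4 for activators, 22 and 12 for inhibitors and 10 and 3 for degradation, when all genes were at 31.5% lower and 30.6% higher. The difference between roles was not tested. All these lists had more genes called lower than higher, and with library totals, which moved all genes from 2547 lower and 2714 higher to 3394 and 2049, the counts were 18 and 3 for activators, 18 and 3 for inhibitors and 9 and 1 for degradation.

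Other lists were set beside the members. Of 34 genes with the KEGG replication annotation, 22 (64.7%) were lower, against 18.9% of all genes, and 1 (POLE3, 2.94%) higher, against 20.1%, with a median of -0.78. Without FT_1, 25 were lower and 3 higher, when all genes were at 31.5% lower and 30.6% higher. RPA3 (-1.73), PCNA (-1.50) and RNASEH2A (-1.21) had the largest falls by log2 fold change in edgeR's calls. Of 44 genes of proliferation outside both maps, 32 (72.7%) were lower, against 18.9% of all genes, and 12 not called. The median of this list was -1.16. Leaving out FT_1 gave 35 lower and 1 higher, when all genes were at 31.5% lower and 30.6% higher. The centromeric histone CENPA fell by 3.05, the phosphatase CDKN3 by 2.58 and the CDK-binding CKS2 by 2.39, while MKI67, the usual marker of cycling cells, was at 5.10, 10.6 and 10.6 FPKM in FT libraries and at 24.1, 26.3 and 25.7 in WT libraries. MKI67 fell by 1.37 (SE 0.30, edgeR adjusted p = 0.0145).

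Cyclins and CDKs with other duties, such as transcription, were more often higher. Of 20 tested, 10 (50.0%) were higher, against 20.1% of all genes, and 1 (5.0%) lower, against 18.9%, with a median of 0.25. Without FT_1, 12 were higher and 4 lower, when all genes were at 30.6% higher and 31.5% lower, and with library totals the counts were 5 and 3 and the median 0.10. CDK14 rose by 0.99 and CCNT1, a cyclin of transcription elongation, by 0.71, and CCNC, a cyclin of the Mediator complex, fell by 0.81.

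**Figure D5:**
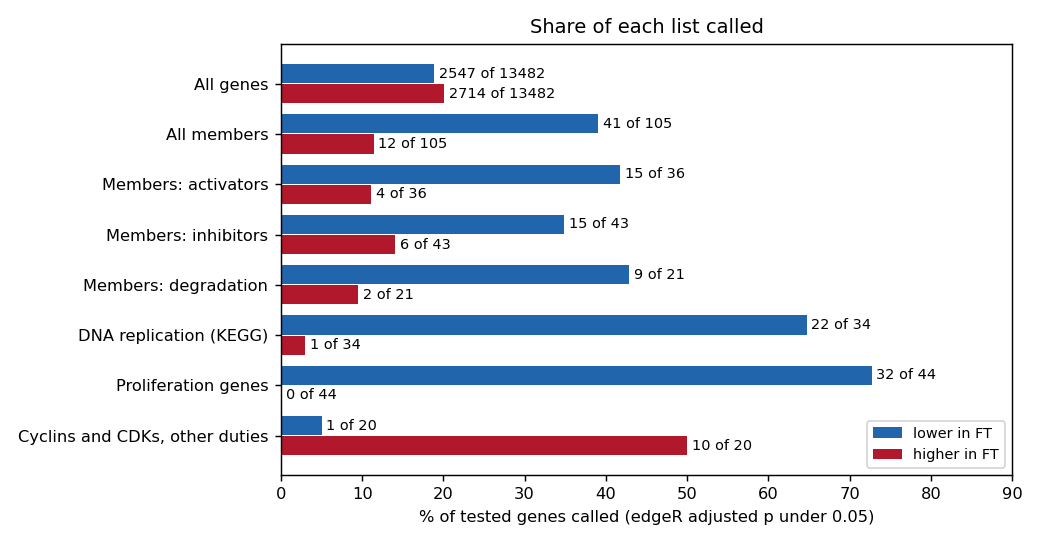
Share of the tested genes of each list called lower (blue) or higher (red) in FT by edgeR at an adjusted p under 0.05, with the counts beside the bars; the axis starts at 0. Lower calls take 39.0% of all members, 64.7% of replication genes and 72.7% of proliferation genes, against 18.9% of all genes.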

How the data were processed

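Poly(A) RNA of 6 bEF libraries was measured, 3 FT and 3 WT, 1 per fetus. The authors deposited a table of 17663 genes with whole-number read counts per gene, not normalized, and with FPKM values scaled by gene length and library total. Their methods name HISAT, StringTie, edgeR and a UCSC genome. The submitters' processing notes list Bowtie 0.12.2, HISAT2 2.0 and StringTie 1.3.0, and the mouse build mm8, which cannot be the build of a cattle table, so no coordinates within a chromosome are printed. How reads shared by overlapping or near-identical genes were counted is not given in the sources used here.

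The counts were tested over the whole table with edgeR 4.0.16 in R 4.3.3 (TMM factors, filterByExpr, glmQLFit and glmQLFTest) without covariates, which left 13482 genes, and p-values were adjusted by Benjamini and Hochberg over all of them. Alternatives were DESeq2 1.42.0, other scalings, no filter, limma 3.58.1 with trend on log2(FPKM + 1) where the mean over libraries reached 0.5, a pseudocount of 0.1, a replicate block and leaving out each library. The values without FT_1 given for all members and lists were added after the data were seen. The test was tested on simulated data. The simulation gave every gene the same spread beyond counting noise and set no library apart, so it does not cover a library like FT_1. Values in every library are given for a core of regulators set by name and for the 2 called members with the largest change in each list by phase and role, and the 3 called genes with the largest change are named in each comparison list. ENSBTAG00000034220 was named CDKN2A, and a second RBX1 row was named, from the table's descriptions. One member is in the counts but is not reported here. Further members were named after their values were seen. The members and lists were chosen with earlier results of these data known.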

Additional observations from a re-analysis of the deposited data

How the results depend on the processing

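Over 67 named genes and 15 alternative settings, 890 of 1004 log2 fold changes kept their direction and their side of the threshold, 79 were no longer called, 18 became called and 17 changed sign, none of them called in the main test. The members called higher, 12 in the main test, were 7 with library totals, 5 with limma on FPKM, 5 with a pseudocount of 0.1 and 7 with the replicate block. Those called lower, 41 in the main test, were 48 with library totals, 50 with limma on FPKM, 38 with no filter and 32 with the replicate block. Members past the study's threshold and higher, 2 in the main test, were 1 with DESeq2, which gave SFN no p, 1 with library totals and 0 with limma on FPKM, with a pseudocount of 0.1 or on scaled FPKM. The members' median of -0.28 became -0.43 with library totals, -0.42 with limma on FPKM and -0.45 with a pseudocount of 0.1; these scalings move the median of all genes as well. CDKN1A turned to -0.11 with library totals, -0.16 with limma on FPKM and with a pseudocount of 0.1, -0.00 on scaled FPKM and -0.01 with the replicate block. E2F3 turned to -0.13 with library totals, -0.11 with limma on FPKM, -0.14 with a pseudocount of 0.1 and -0.01 with upper-quartile scaling. With each library left out, the members called lower ranged from 28 (without WT_2) to 57 and those called higher from 5 to 19, all genes called higher from 1516 to 4215 and lower from 1531 to 4337, members past the study's threshold and higher from 1 to 3, and the members' median from -0.36 to -0.27, with the most calls without FT_1. In the same fits E2F1 ranged from -0.61 to 0.09, CDKN1A from -0.24 to 0.19, MYC from -0.19 to 1.57, E2F3 from -0.04 to 0.11 and CDK2 from -0.18 to 0.01. Same-numbered libraries come from different fetuses and their deviations did not go together (Pearson's r of -0.00, -0.02 and 0.02 across 13482 genes, which are not independent replicates), and with the replicate block 38 of the 53 member calls were made again. The cause of these differences was not tested. Counts limit SMC1B, CCNA1 and the WT values of SFN.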

Other observations

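Genes with a known place in these phases that lack the KEGG cell cycle annotation in the table were measured too. Of 31 tested, 13 (41.9%) were lower in FT, against 18.9% of all genes, 5 (16.1%) higher, against 20.1%, and 13 not called by edgeR, with a median log2 fold change of -0.48. Without FT_1, 17 were lower and 5 higher, when all genes were at 31.5% lower and 30.6% higher. AURKA, AURKB, FBXO5, CKS1B, CDT1, FOXM1 and GMNN are also in the list of proliferation genes. The largest rise was that of E2F5, a repressive E2F that binds RBL2 in resting cells. It was at 23.4, 9.97 and 11.5 FPKM in FT_1, FT_2 and FT_3 and at 4.10, 4.49 and 5.11 in WT libraries, a log2 fold change of 1.86 (SE 0.36; edgeR adjusted p = 0.0102), and of 1.40 (adjusted p = 0.000126) without FT_1. All FT libraries were above WT, as they were for E2F4.

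Several of these genes regulate cohesin. ESCO2, the acetyltransferase that locks cohesin during replication, fell by 1.52 (SE 0.31; edgeR adjusted p = 0.0113), SGO1, which protects cohesin at centromeres, by 1.51 (SE 0.23; edgeR adjusted p = 0.00446), and CDCA5 (sororin), which keeps the ring closed, by 1.23 (SE 0.30; edgeR adjusted p = 0.0227). MAU2, a part of the cohesin loader, was at 19.3, 14.2 and 15.7 FPKM in FT libraries and at 7.87, 8.09 and 11.4 in WT libraries, and rose by 1.01 (SE 0.19; edgeR adjusted p = 0.00908). Its partner NIPBL was not called (edgeR adjusted p = 0.286). PDS5B (0.36, edgeR adjusted p = 0.0176) and PDS5A (0.29, edgeR adjusted p = 0.0210) were called higher and WAPL (-0.33, edgeR adjusted p = 0.02) lower. The mitotic kinases AURKA and AURKB each fell by 1.32, and BORA, the activator of AURKA, fell by 1.22. These genes were chosen after their values were seen.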
